A study of Homo sapiens with 6 samples.

Results

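Mitotic transcripts were followed in HCCLM3 cells, an established human hepatocellular carcinoma line, after 24 h with the cereblon modulator CC-885 or with its solvent DMSO. The genes are 50 named regulators of mitosis, listed by symbol and chosen with earlier results of these data known. They are kinases and cyclins of mitotic entry, the spindle checkpoint, anaphase regulators, kinetochore and spindle proteins, kinesin motors and cytokinesis factors. All 50 have a row among the 20263 genes of the count table, and all 50 passed the filter on low counts. RNA sequencing gave 3 libraries with CC-885 and 3 with DMSO, from cells grown in DMEM with serum. The sources used here do not give the dose of CC-885. Nothing in the labels ties the 3 libraries of a group to separate cultures, and p-values therefore measure only how far these libraries spread, which may be technical. CC-885 is a small molecule that attaches to cereblon (CRBN), part of a ubiquitin ligase, and brings to it proteins such as the translation termination factor GSPT1. The study, by its title, asked about degradation of the Golgi protein GOLM1 and the growth and spread of these cells.

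In mitosis the kinase CDK1 with cyclin B starts the condensation of chromosomes and the building of a spindle. Kinetochores then attach chromosomes to microtubules while the spindle checkpoint holds back the anaphase-promoting complex (APC/C), a ubiquitin ligase that later destroys securin and cyclin B. Most transcripts of this program peak late in the cell cycle, in G2 and M phase, through promoters that carry CCAAT boxes and a cell cycle homology region (CHR) read by the DREAM and MuvB complexes. In RNA from a whole culture, fewer cells in these phases and less of a transcript per cell cannot be told apart.

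Total counts per library ran from 30432509 to 39809131. The label of liver cancer cells was set against 12 hepatocyte genes. Albumin (ALB), AFP, TTR, APOA2 and APOB were at 0 counts in all 6 libraries, and the summed level of the 12 was 5.99 to 9.89 CPM (counts scaled to library size, adjusted by TMM factors) with CC-885 and 19.4 to 22.9 CPM with DMSO, nearly all of it CEBPA. Of the fibroblast genes COL1A1 (mean 155 CPM with CC-885, 104 with DMSO) and PDGFRB (14.1 and 70.9 CPM) were present while LUM was at 0. The remaining fibroblast genes were low, COL3A1 at 0.70 and 1.87 CPM, DCN at 0.13 and 1.21 CPM and COL1A2 at 0.02 and 0 CPM. Endothelial genes summed to 0.872 to 4.93 CPM and leukocyte genes to 2.08 to 3.16 CPM, with PTPRC at 0. The part of these levels in the results below was not tested.

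The promoters of the mitotic genes share CCAAT and CHR letters. These letters were not used to choose the genes, but they were picked as known features of G2 and M phase promoters. An excess over other genes was therefore foreseen. RefSeq windows (GRCh38.p14) from 250 bases before to 50 after an annotated start were found for 43 of the 50 genes, and 6 of the 43 had more than 1 window. Not matched were AURKA, BIRC5, BUB3, FOXM1, TPX2, TTK and UBE2C. The letters CCAAT, on either strand, were present in 35 of 43 genes (81.4%), against 39.7% of all 27305 genes with such a window. A CHR letter group, TTTGAA or TTTAAA on either strand, was present in 36 of 43 (83.7%) against 27.9%, and both motifs together in 29 of 43 (67.4%) against 11.2%. A gene counted once if any of its windows held the motif, and TTTAAA reads the same on both strands. The last 120 bases before the start are shown for 3 genes that rose or fell among the kinesins and for SPC24, which fell most. They are also shown for the securin gene PTTG1 at its upstream annotated start and for CDK1 at its downstream annotated start. Capitals mark the CCAAT and CHR letters on either strand.
KIF18A (chr11:28108157-28108276, strand minus): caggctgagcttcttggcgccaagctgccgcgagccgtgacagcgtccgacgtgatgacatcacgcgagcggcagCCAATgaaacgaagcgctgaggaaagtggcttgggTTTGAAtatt
KIF23 (chr15:69414229-69414348, strand plus): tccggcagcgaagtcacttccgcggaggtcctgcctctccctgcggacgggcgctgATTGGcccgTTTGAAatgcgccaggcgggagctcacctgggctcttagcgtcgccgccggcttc
KIF20A (chr5:138178992-138179111, strand plus): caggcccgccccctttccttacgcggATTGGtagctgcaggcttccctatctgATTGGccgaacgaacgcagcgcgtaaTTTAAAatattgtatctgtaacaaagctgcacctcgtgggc
PTTG1 (chr5:160421735-160421854, strand plus): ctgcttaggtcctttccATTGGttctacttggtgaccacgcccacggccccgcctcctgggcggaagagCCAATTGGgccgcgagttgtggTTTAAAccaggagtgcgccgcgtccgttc
CDK1 (chr10:60778358-60778477, strand plus): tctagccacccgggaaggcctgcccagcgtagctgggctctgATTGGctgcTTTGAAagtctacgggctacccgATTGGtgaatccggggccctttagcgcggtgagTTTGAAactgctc
SPC24 (chr19:11155783-11155902, strand minus): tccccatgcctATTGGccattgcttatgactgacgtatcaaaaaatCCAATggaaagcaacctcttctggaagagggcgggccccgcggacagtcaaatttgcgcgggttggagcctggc
The stretches of KIF18A, KIF23 and KIF20A each held both motifs although the transcripts went in different directions, and that of SPC24 held CCAAT letters only. In PTTG1 CCAAT letters of both strands overlap. The 120 bases before the upstream start of CDK1, not shown, held neither motif, and those before the downstream start of PTTG1, also not shown, held both. Of the members called higher, 8 of 8 had CHR letters and 5 of 8 CCAAT in a window, and of those called lower 8 of 10 and 9 of 10. A match is a description of these letters and not of a bound site.

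The summed level and the median log2 fold change of the 50 mitotic genes moved little. This does not extend to the other mitotic genes described below, whose median log2 fold change was 0.25. The summed level of the 50 transcripts was 6815, 7097 and 7709 CPM with CC-885 and 6754, 7299 and 7331 CPM with DMSO, a mean of 7207 ± 457 against 7128 ± 324 (SD, n = 3), and the groups overlapped. Of the 50 genes 8 rose (16%) and 10 fell (20%), taking as called an adjusted p under 0.05 in the edgeR quasi-likelihood test over 13444 genes. Among all tested genes 25.8% were called higher and 26.8% lower, 52.6% in all, while 36% of the mitotic genes were called. Every CC-885 library lay above every DMSO library for 8 of the 50 genes and below for 12 (40%), against 29.9% above, 31.2% below and 61.1% in all of the tested genes. The median log2 fold change was 0.04, beside -0.04 over all tested genes. The median absolute log2 fold change was 0.28, beside 0.50 over all tested genes, and 1 of the 50 was called with a change of 2-fold or more, against 18.6% of all. The mitotic genes were more abundant than most, with a median of 113 CPM against 29.6 CPM, and their median standard error (0.15) was near that of all genes (0.16).

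**Figure D1:**
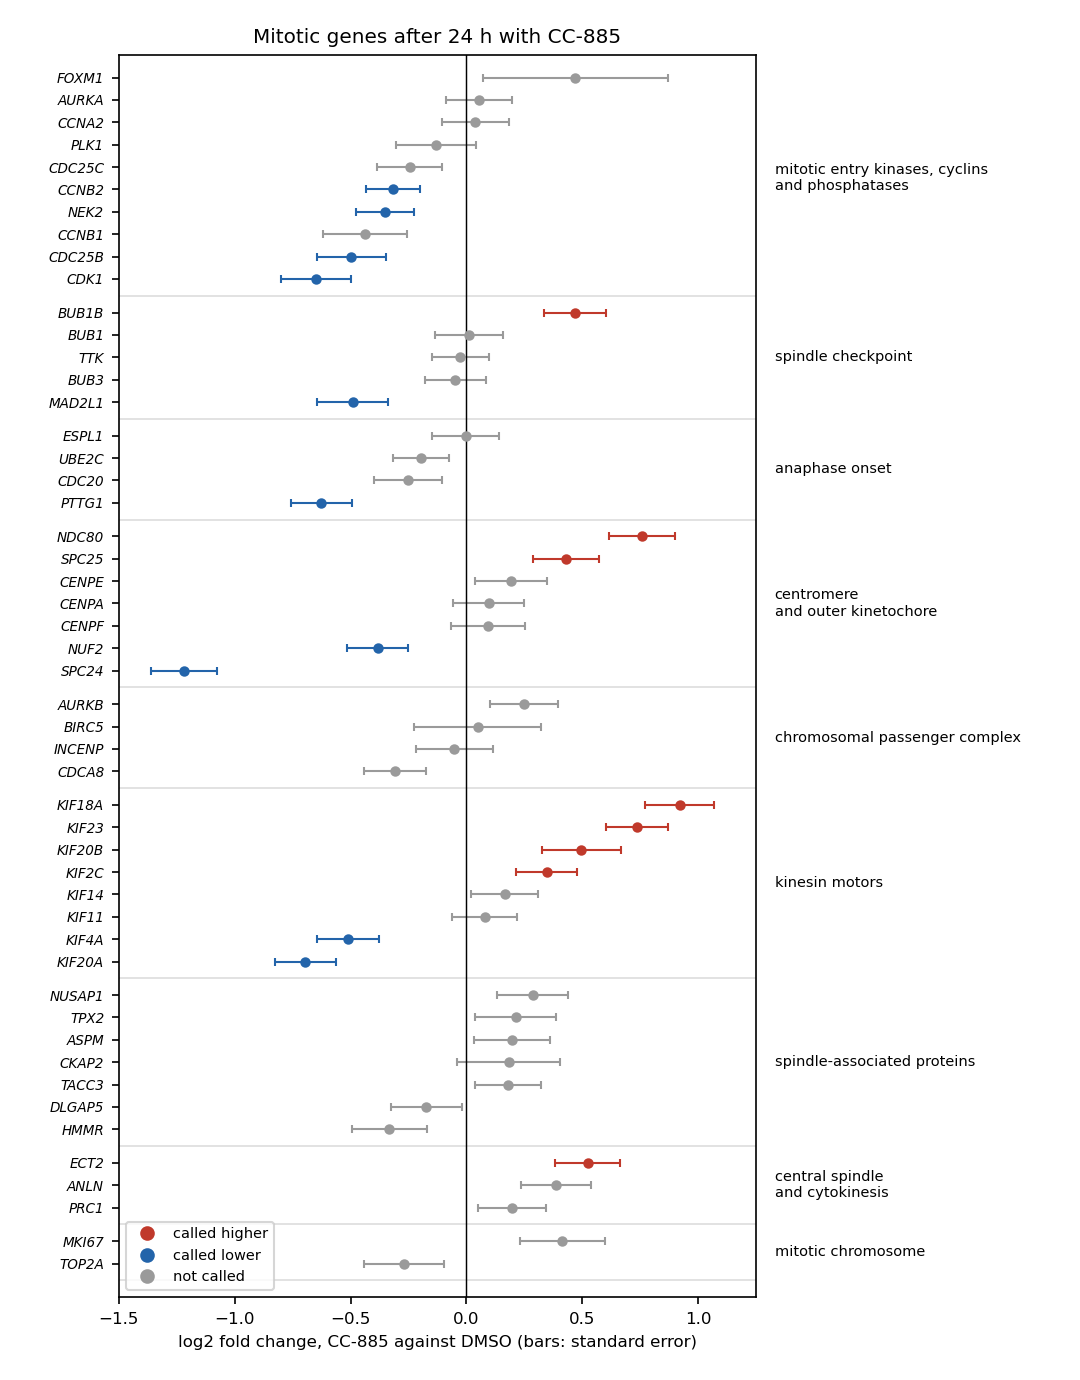
Log2 fold change of CC-885 against DMSO (x axis) for each of the 50 mitotic genes, grouped by role (labels at the right); points are edgeR estimates, bars are standard errors, red and blue points are genes called higher and lower, grey points are not called. The checkpoint, kinetochore and kinesin groups hold calls in both directions, the 4 calls among mitotic entry genes are all lower, and SPC24 stands lowest at -1.22.

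Within a group the levels of the 50 transcripts varied between libraries with their GC content, members of low and high GC often deviating in opposite directions. CC-885 replicate 3 had the highest level of its group for 31 of the 50 genes and DMSO replicate 2 for 34, while CC-885 replicate 1 had the lowest for 32 and DMSO replicate 1 for 28. The median deviation of the mitotic genes from their group mean was 0.14 in CC-885 replicate 3 and 0.13 in DMSO replicate 2 on the log2 scale, where that of all tested genes was between -0.01 and 0.01 in each library. Across the 50 genes the deviation of a library correlated with the GC content of the longest transcript with Spearman's rho of 0.65, 0.33 and -0.73 for replicates 1 to 3 of CC-885 and 0.73, -0.76 and 0.52 for those of DMSO, and across all genes with 0.43, 0.19, -0.50, 0.47, -0.39 and 0.13. Genes are not independent replicates, and those of a library share its depth and preparation. In DMSO replicate 2 the 10 members with the lowest GC (34.2 to 38.3%, among them CDK1, KIF18A and ASPM) had a median deviation of 0.23, and the 10 with the highest (52.2 to 59.6%, among them PLK1, CDC20 and INCENP) of -0.29. With an offset for GC content and transcript length in each library 9 of the 50 genes were called higher and 14 lower (46%, against 57.1% of all genes). AURKB (0.56, adjusted p = 0.0113) and TACC3 (0.36, adjusted p = 0.0129) then passed as higher and CCNB1, HMMR, DLGAP5 and TOP2A as lower, while the call of KIF20B was lost.

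**Figure D2:**
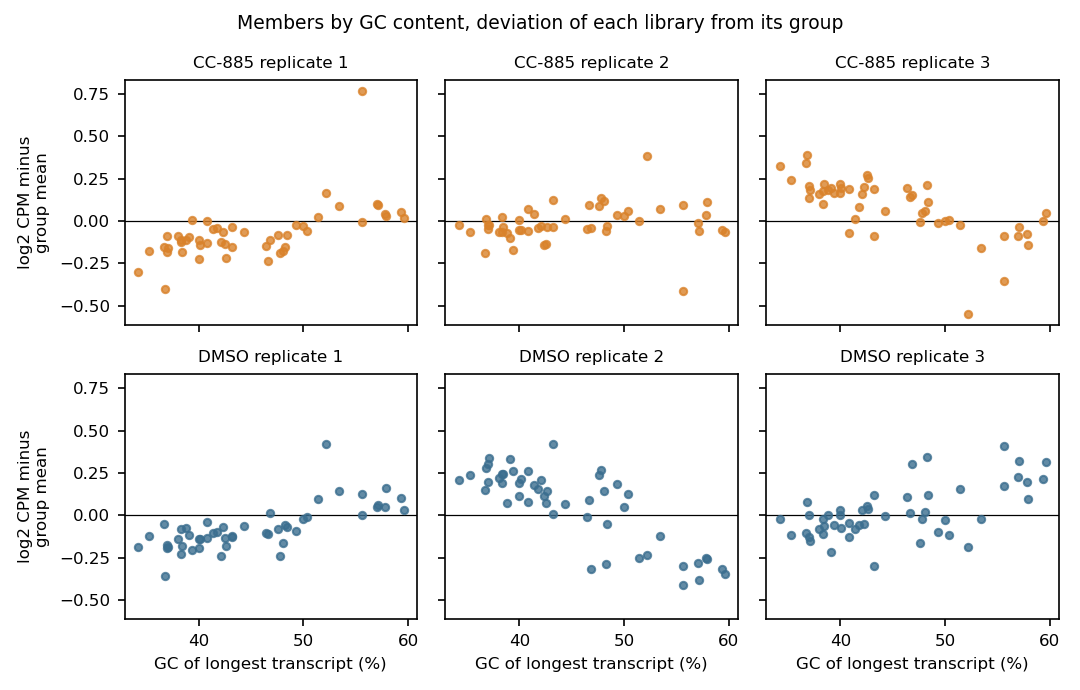
Each panel is 1 library; each point is 1 of the 50 mitotic genes, with the GC content of its longest transcript in percent on the x axis and its log2 CPM (with 0.5 CPM added) minus the mean of its group on the y axis. The points fall with GC in CC-885 replicate 3 and DMSO replicate 2 and rise with it in CC-885 replicate 1 and DMSO replicates 1 and 3.

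Genes of mitotic entry contained 4 lower and 0 higher among 10, where 26.8% of all tested genes were lower and 25.8% higher. The counts of the other role groups below stand against the same shares. CDK1, the kinase that drives entry, was at 79.5, 81.7 and 92.8 CPM with CC-885 and 116, 162 and 120.1 CPM with DMSO. Each CC-885 library lay below each DMSO library (log2 fold change -0.65, SE 0.15, adjusted p = 0.00406), and the call held in every alternative run. CDC25B, a phosphatase that activates CDK1, was at 100.2, 92.9 and 96.6 CPM with CC-885 and 145, 108 and 156 CPM with DMSO (log2 fold change -0.50, SE 0.15, adjusted p = 0.0156). NEK2, a kinase that separates centrosomes, was at 85.4, 85.2 and 92.9 CPM with CC-885 and 104, 124 and 108 CPM with DMSO, again with no overlap (log2 fold change -0.35, SE 0.12, adjusted p = 0.0331). CCNB2, a B-type cyclin, had the smallest of these changes, at 90.7, 95.8 and 99.0 CPM with CC-885 and 113, 124 and 118 CPM with DMSO (log2 fold change -0.32, SE 0.12, adjusted p = 0.0408). The call of CDC25B was lost without replicate 2 (adjusted p = 0.0634) or 3 (0.0535) of CC-885 or replicate 1 (0.0566) of DMSO, and that of NEK2 without replicate 1 (adjusted p = 0.115), 2 (0.133) or 3 (0.0537) of CC-885 or replicate 1 (0.0544) of DMSO. The call of CCNB2 ended without replicate 1 (adjusted p = 0.158), 2 (0.133) or 3 (0.0684) of CC-885 or replicate 1 (0.0812) or 3 (0.0628) of DMSO and with DESeq2 size factors (0.0503) or no filter on low counts (0.0679).

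CCNB1, the main partner of CDK1, was not called. It was at 216, 242 and 209 CPM with CC-885 and 269.8, 393 and 239 CPM with DMSO, and DMSO replicate 3 lay within the CC-885 range (log2 fold change -0.44, SE 0.18, adjusted p = 0.062). It passed as lower without replicate 3 (adjusted p = 0.00548) of DMSO, as well as with library size scaling (0.0472), the DESeq2 Wald test (0.0441), the CPM filter (0.0335), the replicate block (0.0397) and GC and length offsets (0.0302). The other entry genes were not called. Their log2 fold changes were 0.04 for CCNA2, the cyclin of S and G2 phase, -0.13 for the polo-like kinase PLK1, 0.06 for the centrosomal kinase AURKA and -0.24 for the phosphatase CDC25C. PLK1 passed as lower without replicate 2 (adjusted p = 0.0489) of DMSO, the library in which it was lowest (183 CPM). FOXM1, a transcription factor of G2 and M phase genes, stood apart in 1 library: it was at 224, 98.6 and 103 CPM with CC-885 and 99.7, 74.7 and 133 CPM with DMSO (log2 fold change 0.47, SE 0.40, adjusted p = 0.368), and without CC-885 replicate 1 its log2 fold change was -0.02.

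The spindle checkpoint had 1 member higher, 1 lower and 3 not called. BUB1B, which encodes the checkpoint protein BUBR1, rose. Its libraries were at 82.7, 90.0 and 105 CPM with CC-885 and 61.0, 67.2 and 72.6 CPM with DMSO, without overlap (log2 fold change 0.47, SE 0.13, adjusted p = 0.0123). MAD2L1, whose product MAD2 binds and inhibits CDC20, went the other way, at 33.0, 29.2 and 36.9 CPM with CC-885 and 39.8, 55.2 and 44.2 CPM with DMSO (log2 fold change -0.49, SE 0.15, adjusted p = 0.0187). The ratio of BUB1B to MAD2L1 counts ran from 2.51 to 3.08 with CC-885 and from 1.22 to 1.64 with DMSO, a pair set side by side after their values were seen. The kinases BUB1 (0.01) and TTK (-0.03) and the adaptor BUB3 (-0.05) were not called, with the log2 fold changes given. The call of BUB1B was lost without replicate 3 (adjusted p = 0.0542) of CC-885 or replicate 1 (0.0593) of DMSO, and that of MAD2L1 without replicate 1 (adjusted p = 0.0531) or 2 (0.092) of CC-885 or replicate 2 (0.0633) of DMSO.

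At the step to anaphase only 1 of 4 genes was called. PTTG1, which encodes securin, the inhibitor of separase, was at 125, 130.4 and 126 CPM with CC-885 and 184, 223 and 183 CPM with DMSO. The CC-885 libraries lay below all DMSO libraries (log2 fold change -0.63, SE 0.13, adjusted p = 0.00204), and the call held in every alternative run. UBE2C, the ubiquitin-conjugating enzyme of the APC/C, also had no overlap between groups but was not called (log2 fold change -0.20, SE 0.12, adjusted p = 0.187), and once GC and length were offset its log2 fold change was 0.11. CDC20, the APC/C activator that the checkpoint inhibits, had a log2 fold change of -0.25 and passed as lower without replicate 2 (adjusted p = 0.0167) of DMSO, and once GC and length were offset it was at 0.01. ESPL1, separase itself, had a log2 fold change of -0.003 (adjusted p = 0.99).

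The NDC80 complex, a rod of 4 subunits that binds microtubules at the outer kinetochore, split into 2 higher and 2 lower transcripts. SPC24 was the only one of the 50 genes to change by 2-fold. It was at 15.7, 15.5 and 13.1 CPM with CC-885 and 37.9, 31.5 and 33.7 CPM with DMSO, and the highest CC-885 library lay far below the lowest DMSO library (log2 fold change -1.22, SE 0.14, adjusted p = 4.56e-05). NDC80 itself was at 61.4, 65.3 and 77.7 CPM with CC-885 and 36.3, 46.6 and 38.0 CPM with DMSO, the opposite order with no overlap (log2 fold change 0.76, SE 0.14, adjusted p = 0.00117). SPC25, which pairs with SPC24 in the protein complex, was at 22.9, 24.0 and 27.9 CPM with CC-885 and 16.7, 19.99 and 18.8 CPM with DMSO (log2 fold change 0.43, SE 0.14, adjusted p = 0.0242). NUF2, which pairs with NDC80, was at 27.6, 28.4 and 34.0 CPM with CC-885 and 37.1, 41.2 and 39.1 CPM with DMSO (log2 fold change -0.38, SE 0.13, adjusted p = 0.03).

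Scaled to exonic length, the 4 subunit transcripts were close to each other with DMSO and apart with CC-885. Their mean levels with DMSO were 11.2 CPM per kb for NDC80, 11.6 for NUF2, 12.1 for SPC24 and 10.1 for SPC25. With CC-885 they were 18.9, 8.93, 5.2 and 13.6 CPM per kb. How close the levels lie depends on the length used. In the same order, the exonic lengths were 3600, 3362, 2839 and 1841 bases, and the longest transcripts 2172, 1969, 2315 and 1354 bases. The ratio of NDC80 to SPC24 per kb was 3.08, 3.33 and 4.68 for CC-885 and 0.756, 1.17 and 0.89 for DMSO. These ratios were formed after the values were seen and are given without a test. The calls of NDC80 and SPC24 held in every alternative run. That of NUF2 was lost without replicate 1 (adjusted p = 0.126) or 2 (0.129) of CC-885 or replicate 1 (0.0601) or 2 (0.0627) of DMSO, and that of SPC25 without replicate 2 (adjusted p = 0.0522) or 3 (0.0907) of CC-885 or replicate 1 (0.111) of DMSO and with library size scaling (0.0543).

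**Figure D3:**
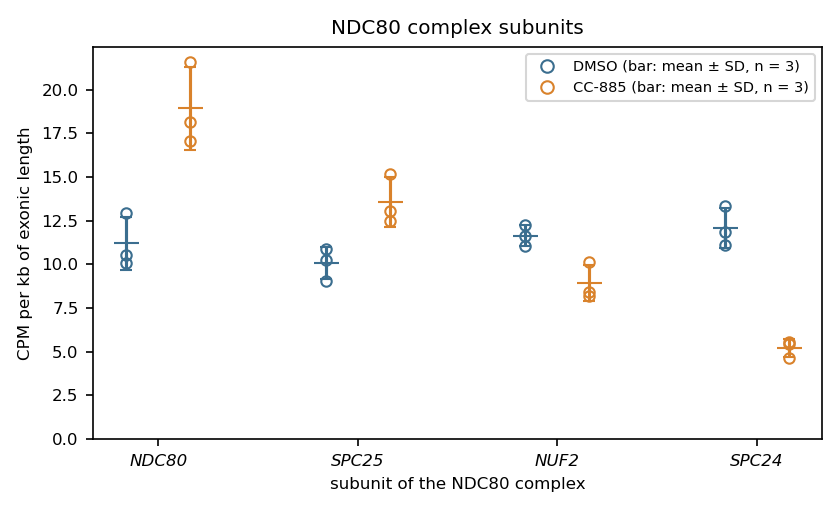
Level of the 4 subunit transcripts of the NDC80 complex in CPM per kb of exonic length (y axis, from 0); circles are libraries, bars are the mean and SD of 3. NDC80 and SPC25 are higher with CC-885 and NUF2 and SPC24 lower, with no overlap between the groups.

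The other 3 centromere and kinetochore genes were not called. CENPA, the histone H3 variant of centromeres, had a log2 fold change of 0.10, the kinetochore kinesin CENPE 0.19 and the large coiled-coil protein CENPF 0.09. CENPF was among the more abundant of the 50 transcripts by count, at 389 to 485 CPM with CC-885 and 363 to 476 CPM with DMSO. The chromosomal passenger complex, which corrects faulty attachments and directs cytokinesis, had 0 of 4 called. CDCA8, which encodes borealin, had the smallest p, at 72.3, 71.1 and 69.8 CPM with CC-885 and 93.2, 73.4 and 97.2 CPM with DMSO. Its groups did not overlap, yet it was not called (log2 fold change -0.31, SE 0.13, adjusted p = 0.0744), and it passed as lower without replicate 2 (adjusted p = 0.00537) of DMSO, with library size scaling (0.0295) and with the CPM filter (0.0331). The kinase AURKB (0.25) had groups that met without overlapping, at 65.4 CPM, while survivin, BIRC5 (0.05), and the scaffold INCENP (-0.05) overlapped.

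Kinesin motors were the role group with the most calls, 4 higher and 2 lower among 8. Among all tested genes 25.8% were higher and 26.8% lower. KIF18A, which dampens chromosome movements at the plus ends of kinetochore microtubules, had the largest increase of the 50 genes. It was at 58.5, 65.2 and 76.7 CPM with CC-885 and 30.6, 40.2 and 35.0 CPM with DMSO and the lowest CC-885 library lay well above the highest DMSO library (log2 fold change 0.92, SE 0.15, adjusted p = 0.000391). KIF23, the motor subunit of centralspindlin, was at 96.3, 91.4 and 116 CPM with CC-885 and 57.8, 65.8 and 58.6 CPM with DMSO (log2 fold change 0.74, SE 0.13, adjusted p = 0.000851). KIF20A, a motor that carries the passenger complex to the central spindle, was lower by almost as much, at 171, 177 and 196 CPM with CC-885 and 279, 283 and 319 CPM with DMSO (log2 fold change -0.69, SE 0.13, adjusted p = 0.0011). The chromokinesin KIF4A was lower too, at 78.5, 84.2 and 99.3 CPM with CC-885 and 116, 124 and 134 CPM with DMSO (log2 fold change -0.51, SE 0.13, adjusted p = 0.00759). All 4 of these calls held in every alternative run. KIF23 and KIF20A, both of the central spindle, went in opposite directions. The ratio of KIF23 to KIF20A counts was 0.517 to 0.592 with CC-885 and 0.184 to 0.233 with DMSO, a pair chosen after the values were seen.

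Smaller increases were those of KIF20B, a motor of late cytokinesis, and of KIF2C, which removes tubulin from microtubule ends. KIF20B was at 43.2, 52.4 and 67.0 CPM with CC-885 and 33.5, 44.1 and 37.6 CPM with DMSO, and its lowest CC-885 library lay below the highest DMSO library (log2 fold change 0.50, SE 0.17, adjusted p = 0.0297). KIF2C was at 284, 308 and 297 CPM with CC-885 and 231, 254 and 214 CPM with DMSO, without overlap (log2 fold change 0.35, SE 0.13, adjusted p = 0.0427). The call of KIF20B was lost without replicate 2 (adjusted p = 0.0527) or 3 (0.136) of CC-885 or replicate 1 (0.116) or 3 (0.0509) of DMSO, with library size scaling (0.0632), the CPM filter (0.0518) and GC and length offsets (0.0827). The call of KIF2C was lost without replicate 1 (adjusted p = 0.0818), 2 (0.152) or 3 (0.09) of CC-885 or replicate 1 (0.124) or 3 (0.114) of DMSO, with library size scaling (0.0881) and with the CPM filter (0.0896). KIF11, the motor that pushes spindle poles apart, and KIF14, a motor of cytokinesis, were not called (0.08 and 0.17).

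**Figure D4:**
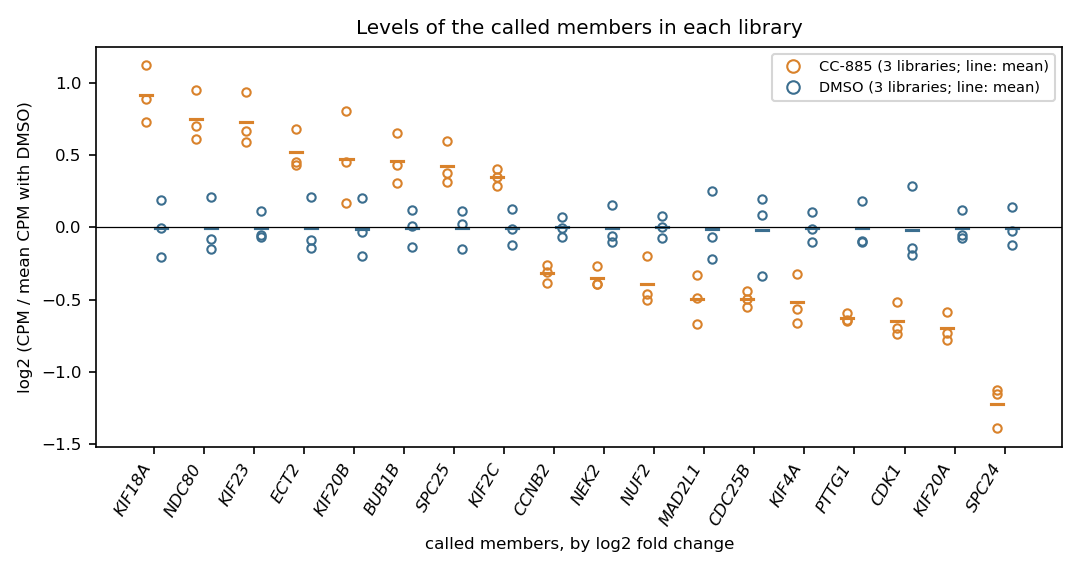
Level in each library of the 18 called mitotic genes, as log2 of the CPM over the mean CPM with DMSO (y axis), ordered by log2 fold change; circles are the 3 libraries of a group and lines their mean. The groups do not overlap for 17 of the 18 genes, which were called from these same libraries, and for 61.1% of all tested genes. In KIF20B the lowest CC-885 library falls within the DMSO range.

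Spindle-associated proteins had 0 of 7 called, with log2 fold changes from -0.33 to 0.29. HMMR, a microtubule-binding protein of spindle poles, had the smallest p, at 32.4, 31.6 and 45.9 CPM with CC-885 and 44.4, 51.1 and 42.8 CPM with DMSO (log2 fold change -0.33, SE 0.16, adjusted p = 0.104). Its CC-885 replicate 3 lay within the DMSO range, and it passed as lower without replicate 3 (adjusted p = 0.0161) of CC-885 or once GC and length were offset (0.0104). TPX2, which activates AURKA on the spindle, was at 164.5 CPM per kb with CC-885, the highest level per length of the 50 transcripts there, and at 142 with DMSO, where UBE2C was above it at 150.2 (log2 fold change of TPX2 0.21). The others were NUSAP1 (0.29), the spindle pole protein ASPM (0.20), CKAP2 (0.18), TACC3 (0.18) and DLGAP5 (-0.17). ASPM passed as higher without replicate 2 (adjusted p = 0.0225) of DMSO, and DLGAP5 as lower with GC and length offsets (0.0317).

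Of the 3 genes of the central spindle and cytokinesis 1 was called. ECT2, the exchange factor that activates RHOA at the cleavage site, was at 138, 140.2 and 164 CPM with CC-885 and 92.5, 118 and 96.2 CPM with DMSO, and all CC-885 libraries lay above all DMSO libraries (log2 fold change 0.52, SE 0.14, adjusted p = 0.00886); the call held in every alternative run. The ring scaffold ANLN missed the threshold, at 113, 132 and 154 CPM with CC-885 and 88.2, 115 and 101 CPM with DMSO (log2 fold change 0.39, SE 0.15, adjusted p = 0.051). It passed as higher without replicate 1 (adjusted p = 0.0313) of CC-885 or replicate 2 (0.0189) of DMSO, and with DESeq2 size factors (0.0454), the Wald test (0.0351), no filter on low counts (0.0413) or the replicate block (0.0323). PRC1, which bundles the microtubules of the central spindle, had a log2 fold change of 0.20. Of the chromosome proteins, MKI67, the proliferation antigen that coats mitotic chromosomes, was at 551, 589 and 712 CPM with CC-885 and 439, 373 and 578 CPM with DMSO (log2 fold change 0.41, SE 0.18, adjusted p = 0.0766). It passed as higher without replicate 3 (adjusted p = 0.00465) of DMSO, with the Wald test (0.0373) and with the replicate block (0.0307). TOP2A, the topoisomerase that separates sister DNA, was at 321, 319 and 391 CPM with CC-885 and 377, 514 and 350.5 CPM with DMSO (log2 fold change -0.27, SE 0.17, adjusted p = 0.21); an offset for GC and length made it pass as lower (0.0119).

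Some counts are less certain than others. Exons of 15 members overlap an exon on the opposite strand in GENCODE 29 and those of 4 an exon on the same strand, and no source says whether strand was used in counting. The overlaps covered 57.6% of the exonic length of PRC1 and 62.2% of that of NUSAP1, both with a same-strand gene model. FOXM1 shares 15.9% with ITFG2, which was at 9.16 and 9.94 CPM, far below FOXM1. CCNA2 shares 9.1% with EXOSC9 (1.17, adjusted p = 0.000117) and CDC25C 8.8% with FAM53C (1.40, adjusted p = 1.62e-05), both on the opposite strand and higher. The shares were 3.5% or less for KIF18A, KIF23, KIF4A and NUF2, and 3.3% (BRD8) and 1.7% (CDC23) for KIF20A. Pseudogenes are annotated for 10 members, among them UBE2C, AURKA and NEK2.

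Other mitotic genes were taken from lists of 153 genes, 151 of them tested. Of these 61 rose and 20 fell (median 0.25 on the log2 scale), and each list's counts below stand against 25.8% higher and 26.8% lower among all tested genes. The APC/C was the list with most genes lower: 8 of 16 were lower and 1 higher (median -0.32). ANAPC16 (41.9 ± 1.36 against 100.1 ± 18.5 CPM, -1.25) and ANAPC13 (21.1 ± 0.389 against 33.8 ± 1.59 CPM, -0.68) had the smallest p, and CDC27 was higher (0.58). Without CC-885 replicate 1 the count of lower genes was 5, and without CC-885 replicate 3 or DMSO replicate 2 that of higher genes was 2. With GC and length offsets 3 were higher and 7 lower, and the median was -0.11. Cohesin, the ring that holds sister chromatids together, and its regulators had 10 of 16 higher and 0 lower (median 0.46), with 1 lower once GC and length were offset. WAPL, which releases cohesin, was at 175 ± 12.2 against 80.3 ± 2.79 CPM (1.12), and CDCA5, sororin, its antagonist, at 151 ± 10.3 against 74.6 ± 2.13 CPM (1.02).

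Inner kinetochore genes had 7 of 15 higher and 1 lower (median 0.41), with CENPL (1.16, 38.3 ± 1.97 against 17.1 ± 3.02 CPM) and CENPU (1.14) higher and CENPW lower (-0.63). The call of CENPW was lost without replicate 2 (adjusted p = 0.0586) or 3 (0.121) of CC-885 or replicate 1 (0.0617) or 2 (0.125) of DMSO, and without DMSO replicate 3 a count of 2 were lower. In the MIS12, KNL1, SKA and RZZ complexes 7 of 20 were higher, among them ZW10 (0.64) and MAD2L1BP (0.73), and 3 lower, among them SKA2 (17.9 ± 0.269 against 36.5 ± 2.47 CPM, -1.02) and OIP5 (-0.74). Without CC-885 replicate 3 or DMSO replicate 1 the count of higher genes there was 3, and with library size scaling it was 4. Of condensin 2 of 8 were higher, SMC4 (0.84) and NCAPG (0.43), a share near that of all tested genes (25.8%), and NCAPD2 was lower (-0.56). With library size scaling or the CPM filter 1 of the 8 was higher. The call of NCAPG was lost without replicate 2 (adjusted p = 0.0687) or 3 (0.115) of CC-885 or replicate 1 (0.13) or 3 (0.0636) of DMSO and that of NCAPD2 without replicate 1 (adjusted p = 0.0706), 2 (0.0753) or 3 (0.0915) of CC-885 or replicate 1 (0.0851) or 3 (0.0531) of DMSO.

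Centriole and spindle pole genes had 11 of 26 higher and 2 lower (median 0.25, or 0.39 without DMSO replicate 3). HAUS2, an augmin subunit, had the largest change there (37.0 ± 6.91 against 7.001 ± 1.96 CPM), a log2 fold change of 2.40, and the centriole factor STIL was higher (1.16), while HAUS4 (-0.87) and TUBGCP5 (-0.50) were lower. The call of TUBGCP5 was lost without replicate 2 (adjusted p = 0.0703) of CC-885. The list named for brakes and phosphatases of mitotic entry had 9 of 17 higher and 3 lower (median 0.53). It mixes brakes such as WEE1 and PKMYT1 with factors that promote entry, such as MASTL and BORA. Each of these named genes was called higher. The Hippo kinase LATS2 was at 274 ± 20.8 against 44.7 ± 7.83 CPM (2.62) and CDC25A, the phosphatase of S phase entry, at 181 ± 16.1 against 54.7 ± 2.37 CPM (1.72), the opposite direction to CDC25B. PPP2R5C (-0.49) and PPP2R5B (-0.45), subunits of PP2A, were lower. Their calls were lost without replicate 1 (adjusted p = 0.0906) of CC-885 or replicate 1 (0.0574) of DMSO for PPP2R5C and without replicate 2 (adjusted p = 0.11) or 3 (0.108) of CC-885 or replicate 1 (0.12) or 3 (0.0835) of DMSO for PPP2R5B, and the count of lower genes was 1 without each of the CC-885 libraries in turn and 0 without DMSO replicate 1.

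Genes for parts of the DREAM and MuvB complexes, which read the CHR as assemblies, had 7 of 12 higher and 1 lower (median 0.59). The pocket protein gene RBL1 was higher (89.4 ± 7.53 against 48.8 ± 3.22 CPM, 0.87) and its relative RBL2 lower (49.1 ± 2.20 against 86.7 ± 4.07 CPM, -0.82), and LIN54, the subunit that contacts CHR letters, was higher (0.96). The count of lower genes was 3 with library size scaling or with GC and length offsets. It was 2 without DMSO replicate 2 or 3, with limma-voom, the CPM filter, the replicate block or halved counts. Of the other kinesins and cytokinesis factors 7 of 21 were higher and 1 lower (median 0.30). This list, and its count of higher genes, includes the kinases PLK2 and PLK3. The count of higher genes ran from 5 without CC-885 replicate 2 to 10 without DMSO replicate 2. With GC and length offsets 9 were higher and the median was 0.18. The largest changes were those of PLK2 (315 ± 22.6 against 68.5 ± 11.7 CPM, 2.20) and PLK3 (1.44), stress-induced relatives of PLK1. RHOA was lower (-0.45), a call lost without replicate 1 (adjusted p = 0.0587), 2 (0.077) or 3 (0.0529) of CC-885 or replicate 1 (0.0528) of DMSO, and without DMSO replicate 2 a count of 2 were lower. Exon overlap with a gene on the other strand covered 33.1% of NCAPG (LCORL), 38% of OIP5 (OIP5-AS1), 18.5% of SMC4 (TRIM59), 16.4% of HAUS2, 13% of ANAPC13 (CEP63) and 11.7% of CENPU (PRIMPOL), and a same-strand gene model 30.9% of HAUS4.

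**Figure D5:**
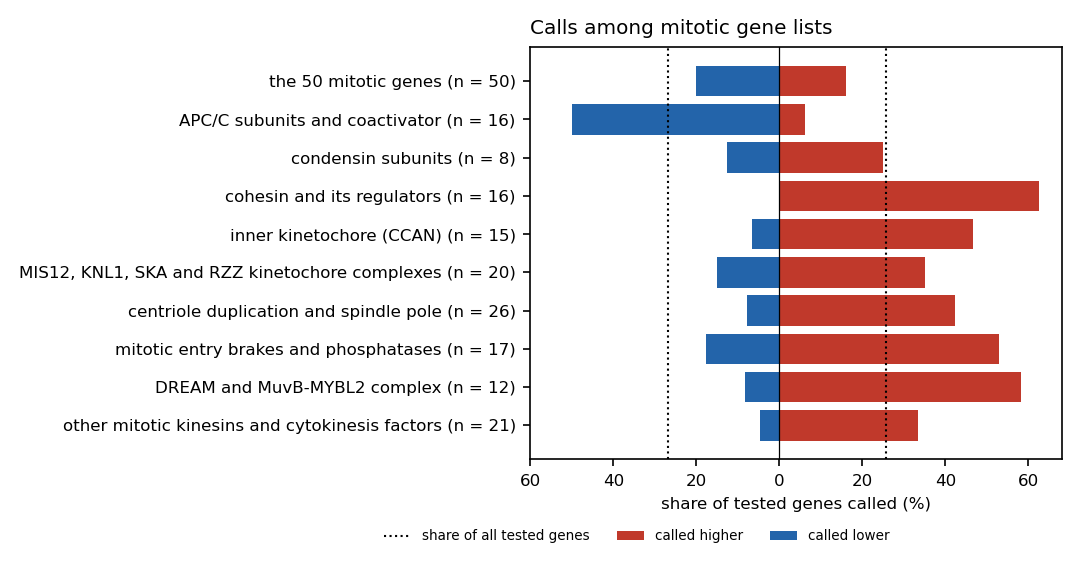
Share of tested genes called lower (blue, to the left) and higher (red, to the right) in percent for the 50 mitotic genes and for each list of other mitotic genes, with the number tested in brackets; dotted lines mark the shares of all tested genes (26.8% lower, 25.8% higher). The 50 genes lie inside both lines, APC/C genes pass the left line, and cohesin genes reach farthest to the right.

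Called genes differed in length and GC content by direction. The longest transcript had a median of 3646 bases in the 8 members called higher and 2409 bases in the 10 called lower, and the median GC was 40.1% and 45.4%. Over all genes called higher and lower the medians were 4266 and 3124 bases and 45.9% and 52.1%. Across the 50 genes the log2 fold change had a Spearman's rho of 0.27 with length and -0.21 with GC, and across all tested genes of 0.19 and -0.19. With GC and length offsets 17 of the 18 calls held.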

How the data were processed

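The authors deposited whole-number counts per gene for 6 libraries, with no normalization, as read from the values and the file header. Neither aligner nor counter is given in the sources used here. GRCm38 and mm10, both mouse builds, stand in the submitters' processing notes, yet the rows carry human Ensembl identifiers. Coordinates were therefore taken only from RefSeq. RNA was extracted with an RNeasy kit and libraries made with a Hieff mRNA kit, as the labels' protocols state. Identifiers were paired with symbols by a name table (20148) or GENCODE 29 (76), and 39 had no name. Of counts from 1 to 20, 66.8% were even, so reads of a fragment may have been counted separately.

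Genes were tested over the whole table with edgeR 4.0.16 (R 4.3.3): TMM factors, filterByExpr (minimum count 10), robust quasi-likelihood F test, no covariate, Benjamini-Hochberg adjustment over 13444 genes, called at adjusted p below 0.05. Standard errors were obtained by dividing the absolute log2 fold change by the root of F. The fit was tested on simulated data. CPM are TMM-normalised, and levels per kb use the exonic length of GENCODE 29. A count of 0 allows 0.0754 to 0.0986 CPM (3 counts of the total), counting error only. The members and lists were chosen with earlier results of these data known. Values per library are given for called members and the smallest p of each role group, and log2 fold changes or means for up to 2 genes per direction of each list. CCNB1, FOXM1, ANLN and TOP2A fall outside that rule and were given per library after their values were seen. As alternatives the fit was repeated with DESeq2 size factors, library size alone, DESeq2 1.42.0, limma-voom (limma 3.58.1), no filter, a filter requiring 5 CPM in 3 libraries, a replicate block, each library left out, halved counts, and GC and length offsets.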

Additional observations from a re-analysis of the deposited data

How the results depend on the processing

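The counts of called mitotic genes depended on the scaling and the libraries used. In place of 8 higher and 10 lower, library size scaling gave 5 higher and 12 lower, GC and length offsets 9 and 14, and leaving out 1 library gave 4 to 10 higher and 5 to 11 lower. The counts over all tested genes moved too. In place of 3471 higher and 3598 lower, leaving out 1 library gave 2897 to 3650 higher and 2908 to 3720 lower. Of the 18 calls, 9 (4 higher, 5 lower) held in all 15 alternatives, and 12 uncalled members passed in at least 1. The median log2 fold change of tested members ran from -0.023 to 0.068 over all alternatives. Causes were not tested.

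Replicate numbers are shared by the groups. Deviations of same-numbered libraries correlated at 0.164, 0.0425 and 0.104, and those of other pairs across groups at -0.193 to 0.0442. These values do not show whether same-numbered libraries were prepared together. Of the 6 libraries 5 correlated best with their own number, a hint from the data and not the design. The replicate block gave 10 members higher and 11 lower.

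Sign changes were all in members that were not called. ESPL1 turned to 0.011 with DESeq2 size factors, the Wald test and no filter on low counts, to 0.01 with limma-voom and the replicate block, and to 0.043 with GC and length offsets. With library size scaling CCNA2 turned to -0.024, AURKA to -0.006, BUB1 to -0.05 and BIRC5 to -0.012, and with the CPM filter to -0.028, -0.011, -0.056 and -0.018 in that order. BUB1 was at 0 with limma-voom and at -0.001 with halved counts. With GC and length offsets CCNA2 was at -0.015, BUB1 -0.102, CDC20 0.013, UBE2C 0.106, CENPE -0.044, CENPF -0.118, INCENP 0.072, KIF11 -0.109, KIF14 -0.047 and ASPM -0.028. Leaving out 1 library moved FOXM1 between -0.016 and 0.698, BIRC5 between -0.146 and 0.295, ESPL1 between -0.119 and 0.113, CCNA2 between -0.069 and 0.161, AURKA between -0.009 and 0.173, BUB1 between -0.133 and 0.087 and TTK between -0.056 and 0.026. The same ranges were -0.003 to 0.246 for CENPF, -0.009 to 0.193 for KIF11, -0.03 to 0.366 for CKAP2, -0.015 to 0.255 for CENPA, -0.097 to 0.059 for BUB3, -0.288 to 0.039 for PLK1 and -0.196 to 0.117 for INCENP.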
